A study of Mus musculus with 4 samples.

Results

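Late haploid sperm genes encode proteins that spermatids need once they leave the round stage. The 9 genes described here were chosen by name and not by any peak, as Prm1, Prm2, Tnp1, Tnp2, Odf1, Smcp, Gapdhs, Ldhc and Pgk2, out of 21938 annotated protein-coding genes. Their promoters, taken as 1000 bp upstream to 500 bp downstream of any annotated transcription start site (TSS) in build GRCm38, were searched for RFX2 peaks. All 9 genes were found in the annotation. Earlier results of these data were known when the genes were chosen.

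RFX2 belongs to the Regulatory Factor X transcription factors, which bind the X-box, an inverted repeat found in promoters of many ciliary genes. In spermatids, protamines replace the histones of the nucleus, transition proteins act between both states, and the tail acquires its outer dense fibres, its mitochondrial sheath and its own set of glycolytic enzymes. Many promoters of such genes are known for a cAMP response element (CRE), the site of the activator CREM-tau. Ldhc and Pgk2 are known to be transcribed in meiotic spermatocytes already, so "late haploid" describes them less well than the other genes. The peak lists hold no expression values, and the stage of expression was not checked here.

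RFX2-bound DNA was collected by chromatin immunoprecipitation and sequencing (ChIP-seq) from material described as decapsulated testes of wild type mice on a mixed background (C57BL/6|129/Sv|FVB/N). There were 4 samples, 2 with an RFX2 antibody from Santa Cruz Biotechnology and 2 inputs sequenced without immunoprecipitation, from 2 independent mice. The labels give the age as postnatal day 29 to 30 for all 4. The study's text instead describes dissociated germ cells of younger mice, and the lists do not settle which material or age applies. At that younger age, the study states, the furthest developed tubules held no cells later than very early round spermatids. Whether the stage of the cells had a part in absent peaks was not tested. The inputs entered the authors' peak calling and had no values of their own, and the number of reads per sample is unknown here.

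The values came from 3 peak lists, namely replicate 1 with 39825 peaks, replicate 2 with 21274 peaks and a list called combined here, with 2726 peaks. The peak names of the combined list point to reads pooled from both replicates. The study's methods also describe a set chosen for reproducibility between replicates by the irreproducible discovery rate (IDR). The size they give for it is close to that of the combined list but not equal to it. Whether the combined list is that set is not stated. What kept a peak of both replicates off the combined list is therefore not known. Each peak carried a score on a −log10 scale, with medians of 4.47 in replicate 1 and 5.06 in replicate 2. The combined list carried −log10 p, with a lowest value of 43.2 and a median of 82.1. As a reference point, Dync2li1, a dynein light intermediate chain gene of ciliary transport and a known RFX target, had a peak over its TSS with a score of 182 in replicate 1, 83.0 in replicate 2 and 244 in the combined list. Whole testis and dissociated germ cells are both mixtures. Binding in fewer cells cannot be told apart from less binding per cell.

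The X-box was written as GTTGCCA followed by its reverse complement TGGCAAC. The sites most like it in the promoters are shown because the X-box is the site that RFX2 recognises. Each is read 5′ to 3′ on the strand of the gene, with capitals for the bases that equal the X-box, and Dync2li1 is given for comparison.
Dync2li1: GTTGCCATGGCAAC
Odf1: GTTGgCATGGtAAC
Prm1: GTTGCCAaGGCtAg
Prm2: GTTGCCtTGGtcAC
Gapdhs: GggGCCAaGGCAgC
Ldhc: GagGCCtTGGaAAC
Pgk2: GcTGCCATccCAAg
Tnp1: agTaCCATGtCgAC
Tnp2: ccTcCCATGGacAC
Smcp: aTaGCCATGGactC

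Odf1 came closest, with 12 of 14 bases in place and the changes C5G and C11T, counted from the 5′ end of the X-box. Prm1 and Prm2 had 3 mismatches each, Gapdhs, Ldhc and Pgk2 had 4, and Tnp1, Tnp2 and Smcp had 5. The Prm1 site lay by the 5′-most annotated TSS, at chr16:10805839, whereas the RefSeq start of Prm1 is at chr16:10796823. In the 300 bp around that RefSeq start the best match had 6 mismatches. With at most 3 mismatches, an X-box was present in 3 of 9 promoters, compared with 17.6% of all promoters of the same definition and 63.7% of those with a combined peak. With at most 2 mismatches it was present in Odf1 alone among the 9, compared with 4.23% of all promoters. These matches are letters in a window and do not show binding.

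Of the 9 genes, only Odf1 had an RFX2 peak in its promoter. It was listed for replicate 1 and for replicate 2, but not in the combined list. The count was therefore 1 of 9 in replicate 1 (11.1%, exact 95% interval 0.281 to 48.2), beside 14.0% of all protein-coding genes. It was likewise 1 of 9 in replicate 2, beside 11.3% of all genes. For peaks in both replicates it was 1 of 9, beside 9.05%. In the combined list it was 0 of 9 (exact 95% interval 0 to 33.6%), beside 5.26% of all genes. With 9 genes, these shares lie within counting error of the background, and 3 of the genes share a locus.

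Odf1 encodes a structural protein of the outer dense fibres, the stiff rods that surround the axoneme of the sperm tail. It lies on the plus strand at chr15:38219203-38226735 and has 1 annotated TSS. In replicate 1 its peak covered chr15:38219167-38219475, from position −36 to 272 relative to the TSS, with a score of 10.4. In replicate 2 the peak covered chr15:38219237-38219399, from position 34 to 196, with a score of 8.10. The replicate 2 peak lay wholly within the replicate 1 peak. Both overlapped exon 1, where the replicate 2 peak covered only 5′ untranslated sequence (163 bp). The replicate 1 peak began at position −36, upstream of exon 1, and reached the start codon and 46 bp of coding sequence.

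The Odf1 site shown above lay in both peaks, at chr15:38219238-38219251, 35 to 48 bp downstream of the TSS. It was 77 bp from the middle of the replicate 1 peak and 74 bp from the middle of the replicate 2 peak, and in the latter close to its upstream edge. Of the words of 32 bp in this promoter, 100% occurred once in the genome, which matters because reads with several locations were discarded. Among the other members this share was 95.1% to 100%, except for Gapdhs with 72.7%. Only exact words were counted, so near copies, which could also lead reads to be discarded, were not assessed.

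**Figure D1:**
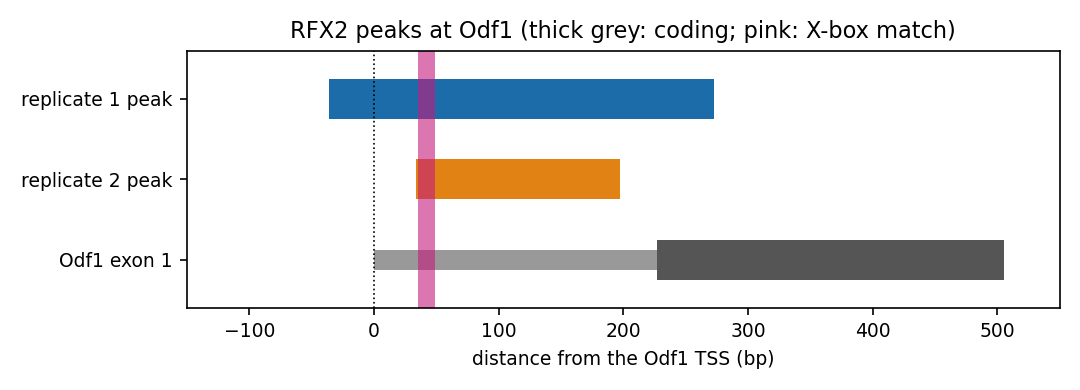
The replicate 1 peak (blue), the replicate 2 peak (orange) and exon 1 of Odf1 (grey, thick where coding) are plotted by distance from the TSS in bp. The pink band, from 35 to 48 bp, marks the X-box match, which both peaks cover.

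The Odf1 peaks were moderate within their lists. By score, the replicate 1 peak ranked 7855 of 39825 and the replicate 2 peak 4488 of 21274. Compared with promoter peaks, however, they were low. Among the 1985 genes with a promoter peak in both replicates, the best promoter peak had a median score of 38.9 in replicate 1, and 14.7% of these genes scored below Odf1. In replicate 2 the median was 19.4, and 21.6% scored below Odf1. The 847 such genes with no combined promoter peak had medians of 14.3 and 8.10, so Odf1 was under the first and level with the second. The 1138 genes with a promoter peak in all 3 lists had a lowest score of 20.6 in replicate 1, above that of Odf1, and of 4.79 in replicate 2, below that of Odf1, with 0.703% of them under it there.

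X-boxes were more frequent in low-scoring peaks that both replicates shared. Among replicate 1 peaks with a score up to 15, an X-box with at most 3 mismatches was found in 57.7% of the 2974 that overlapped a replicate 2 peak, as for Odf1, and in 14.7% of the 30998 that did not. In replicate 2 the shares were 58.8% of 5925 and 3.83% of 12942. Width and score were not matched within this range, and no test was run.

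The protamines Prm1 and Prm2, which compact sperm DNA, and Tnp2, a transition protein, lie in a cluster on the minus strand of chromosome 16, which also holds Prm3 between Tnp2 and Prm2, at chr16:10796326-10805839, chr16:10791380-10796134 and chr16:10787936-10788660. No list had a peak at any of them, and all 3 had the same nearest peaks. Because they share these peaks, they amount to 1 observation. In replicate 1 the nearest peak, in an intron of Clec16a, lay 111 kb from a Prm1 TSS and 103 kb from Tnp2, with Prm2 in between, and its score of 4.47 equalled the median of the list. In replicate 2 the nearest peak was on the other side, in intergenic sequence whose nearest gene was Rmi2, 98.2 kb from Prm1, 108 kb from Prm2 and 115 kb from Tnp2, with a score of 4.99. Neither was met by the other replicate, and their best X-box matches had 6 and 5 mismatches.

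The nearest combined peak to this cluster was in intergenic sequence 345 kb from Prm1, 340 kb from Prm2 and 337 kb from Tnp2. It was 3.91 kb from the TSS of Tvp23a, scored 97.8 as −log10 p, and held an X-box with 1 mismatch. The Prm1 site with 3 mismatches, starting at position −114 from its 5′-most TSS, and the Prm2 site, starting at −912 from its 3′ TSS, were thus without a peak in all lists.

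Tnp1, the other transition protein, showed a different arrangement. It lies alone at chr1:73015074-73015909 on the minus strand, and its promoter had no peak. A peak called in both replicates lay 26.0 kb upstream in replicate 1 and 26.3 kb upstream in replicate 2. Tnp1 was the protein-coding gene with the nearest TSS to it. In replicate 1 the peak covered chr1:73041862-73042837 with a score of 40.7, which 5.58% of the list reached. In replicate 2 it covered chr1:73042195-73042618 with a score of 19.4, which 8.57% of the list reached. Both scores were higher than those at the Odf1 promoter, yet the peak was absent from the combined list. It lay outside protein-coding genes, and non-coding genes were not checked.

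A stretch of this peak centred on its best X-box match is shown because the match is close and both replicates share the peak. Tnp1 is also the protein-coding gene nearest to the peak. These 200 bases are chr1:73042325-73042524 of GRCm38, read 5′ to 3′ on the minus strand, the strand of Tnp1, with the X-box match in capitals.
Tnp1 upstream peak: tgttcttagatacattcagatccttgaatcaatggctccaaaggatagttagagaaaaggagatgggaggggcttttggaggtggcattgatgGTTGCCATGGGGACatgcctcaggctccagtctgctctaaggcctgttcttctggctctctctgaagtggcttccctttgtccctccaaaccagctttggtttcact
The match had 2 mismatches, C11G and A12G, and lay 18 bp from the middle of the replicate 2 peak and 75 bp from that of the replicate 1 peak. The nearest combined peak to Tnp1 was on the other side, 156 kb downstream in an exon of Igfbp5, with a −log10 p of 115 and an X-box without mismatches. At 156 kb, Tnp1 was the member nearest to a combined peak.

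Smcp encodes a cysteine-rich protein of the mitochondrial capsule in the sperm midpiece and lies at chr3:92583867-92588997. Its nearest peaks were 29.9 kb away in replicate 1, near Lce6a and with a score of 4.47, 435 kb away in replicate 2, near Lelp1 and with a score of 5.49, and 958 kb away in the combined list, near S100a10. These were 3 different peaks, and neither of the first 2 was met by the other replicate.

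**Figure D2:**
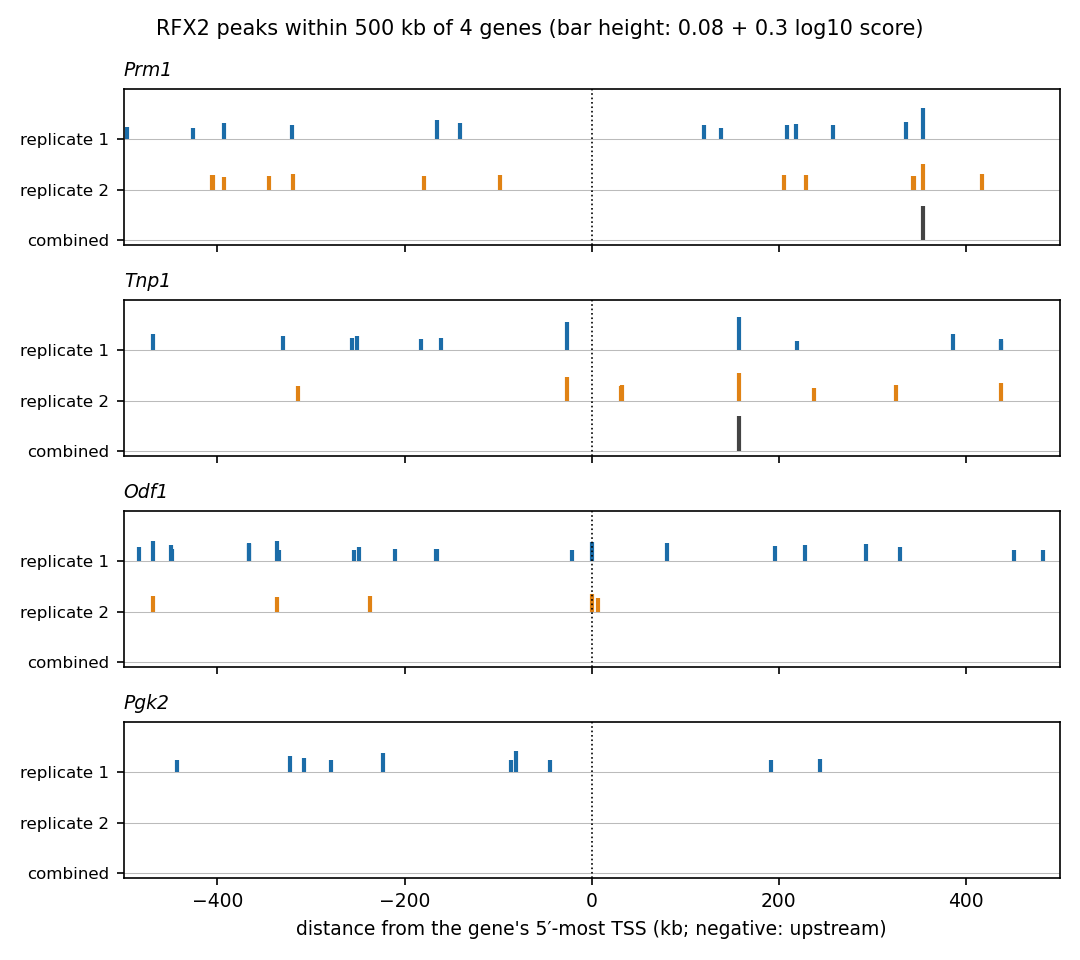
Peaks of each list within 500 kb of Prm1, Tnp1, Odf1 and Pgk2 are drawn by the distance of their middle from the 5′-most TSS in kb, with bar height set to 0.08 plus 0.3 times log10 of the score. Only Odf1 has peaks at 0, Tnp1 has a peak of both replicates about 26 kb upstream, and Pgk2 has no peak of replicate 2 or the combined list in range.

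The remaining members are enzymes that serve sperm glycolysis, and none had a promoter peak. Gapdhs, the sperm glyceraldehyde-3-phosphate dehydrogenase, lies at chr7:30729775-30743681 with 3 annotated TSSs. Its nearest replicate 1 peak was 27.5 kb away near 2200002J24Rik, with a low score of 2.96 but an X-box with 2 mismatches, and was not met by replicate 2. In replicate 2 the nearest was 67.9 kb away in the promoter of Haus5 (score 4.43), where replicate 1 had a peak as well. The nearest combined peak was 307 kb away in the promoter of Fxyd7.

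Ldhc, the testis lactate dehydrogenase, lies at chr7:46861203-46878142, next to the somatic gene Ldha. Its nearest peak in replicate 2 was in an intron of Ldha, 8.15 kb upstream of Ldhc, with a score of 5.95, and replicate 1 had none there. In replicate 1 the nearest was 22.1 kb upstream of Ldhc and 2.36 kb upstream of Ldha, with a score of 4.15. This one was met by a replicate 2 peak 2.42 kb upstream of Ldha with a score of 5.95, and both covered the same site with 4 mismatches to the X-box. The combined list had nothing nearer than 747 kb, in an exon of Abcc8.

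Pgk2, the testis phosphoglycerate kinase, is an intronless retrogene at chr17:40207015-40208640 and was the member farthest from a peak in replicate 2 and in the combined list, though not in replicate 1. Its nearest peak was 44.2 kb away in replicate 1 (near Crisp3, score 3.64), 522 kb away in replicate 2 (in an intron of Esp1, score 4.31) and 2929 kb away in the combined list. That combined peak was strong, at 49.6 times local background and a −log10 p of 240, but its nearest gene was Tnfrsf21. Replicate 2 had 0 peaks within 500 kb of Pgk2, and the combined list had 0.

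The somatic counterparts of these enzymes had no promoter peak either. Ldha had the pair of overlapping weak peaks just described. Pgk1 had a replicate 1 peak 8.68 kb downstream of its TSS, without a partner in replicate 2. Gapdh was 66.1 kb from a strong peak in the promoter of Chd4, with scores of 235 in replicate 1, 72.4 in replicate 2 and 234 in the combined list.

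Compared by distance, the members lay farther from RFX2 peaks than the median gene in most instances. In replicate 1 their median distance from a TSS to the nearest peak was 29.9 kb (range 0 to 111), against 16.8 kb for all genes, and 8 of 9 lay beyond the latter. In replicate 2 it was 98.2 kb (0.034 to 522) against 28.4 kb, with 6 of 9 beyond. In the combined list it was 345 kb (156 to 2929) against 204 kb, with 8 of 9 beyond. Tnp1 was the exception in the combined list and Odf1 in replicate 1. In replicate 2, Odf1, Tnp1 and Ldhc were nearer than the median gene. The members' medians in replicate 2 and the combined list were the distances of Prm1 itself. Prm1, Prm2 and Tnp2 were each counted here although they share the same nearest peaks.

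A peak lay within 50 kb of 6 members in replicate 1, 3 members in replicate 2 and 0 members in the combined list. The same was true of 77.6%, 63.9% and 22.0% of all genes. Within 100 kb the combined list still reached 0 of 9, against 33.7% of all genes. These are descriptions without a test, since the members are few, were not drawn at random and share a locus.

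**Figure D3:**
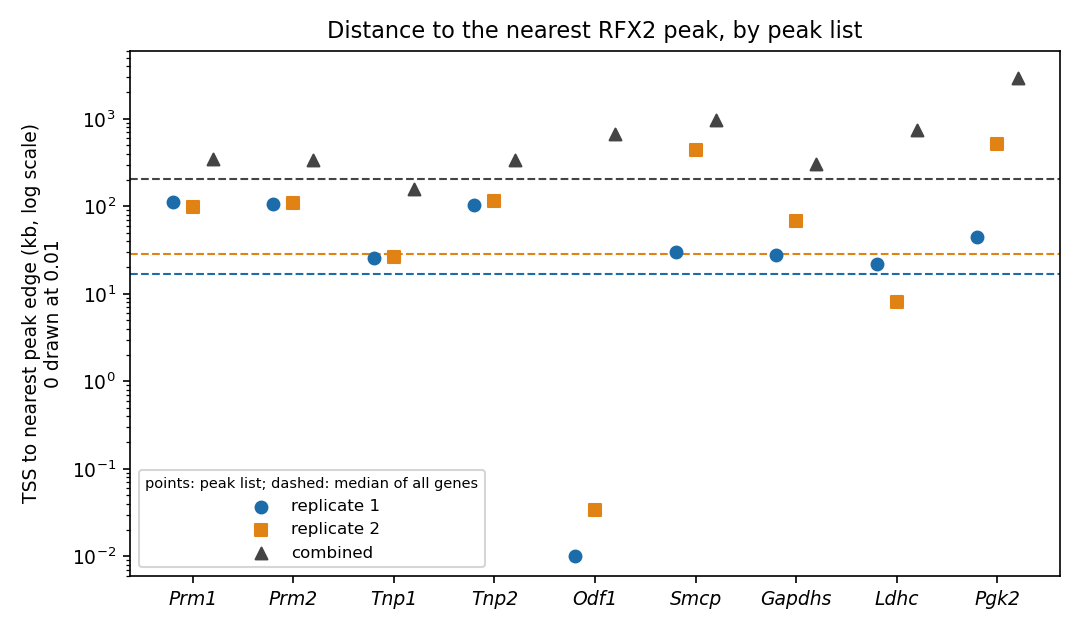
Distance in kb on a log scale from the nearest TSS of each gene to the nearest edge of a peak is shown for replicate 1 (circles), replicate 2 (squares) and the combined list (triangles), with 0 drawn at 0.01 and dashed lines for the medians of all genes. Odf1 stands apart with 0 and 0.034 kb in the replicates, and no triangle is below 156 kb.

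Promoters of the members were poor in CpG. In the 300 bp from 250 bp before to 50 bp after the 5′-most TSS, the ratio of observed to expected CpG had a median of 0.219 in the members, 0.525 in all genes and 0.730 in the genes with a combined promoter peak. Each of the 9 was below the median of all genes, from 0 in Smcp, which had no CpG in this stretch, to 0.397 in Prm1. At the RefSeq start of Prm1, which lies downstream of this TSS, the ratio was 0.0487. Odf1, the member with a peak, had a ratio of 0.100, and 1.91% of the genes with a combined promoter peak had a lower one. GC content had medians of 50% in the members, 55% in all genes and 58% in genes with a combined peak. Whether base composition had a part in the peak counts was not tested.

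**Figure D4:**
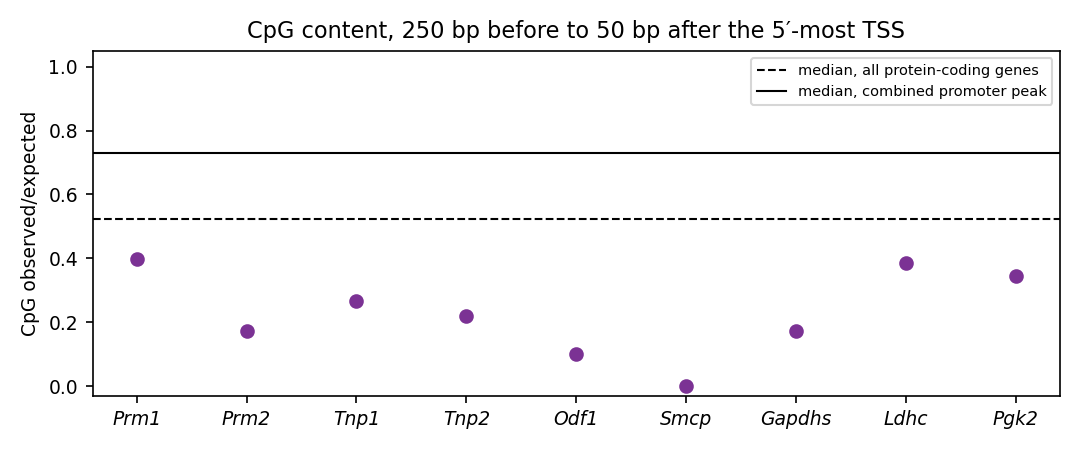
The ratio of observed to expected CpG in the 300 bp around the 5′-most TSS is shown for each gene (points), with the medians of all protein-coding genes (dashed, 0.525) and of genes with a combined promoter peak (solid, 0.730). All 9 points lie below both lines.

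The CRE, TGACGTCA, was searched for from 250 bp upstream to 50 bp downstream of each TSS, since such sites are well known in these genes. With at most 1 mismatch, Prm1, Tnp1, Smcp and Gapdhs held one, 4 of 9 compared with 24.5% of all genes. Without a mismatch, 0 of 9 did, compared with 3.50%. Odf1 had none in this window. In the full promoter 8 of 9 held a CRE match, Odf1 included, compared with 53.2% of all genes. Among genes with a combined promoter peak, a CRE with at most 1 mismatch was present in 32.5% in the shorter window. In the full promoter it was present in 62.9% of them.

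The Tnp1 promoter is shown as an example of a promoter with a CRE match and no peak in the 3 lists. These 250 bases lie upstream of the RefSeq start of Tnp1 (GRCm38.p6, chr1:73015900-73016149, minus strand, 5′ to 3′), with the CRE match in capitals.
Tnp1 promoter: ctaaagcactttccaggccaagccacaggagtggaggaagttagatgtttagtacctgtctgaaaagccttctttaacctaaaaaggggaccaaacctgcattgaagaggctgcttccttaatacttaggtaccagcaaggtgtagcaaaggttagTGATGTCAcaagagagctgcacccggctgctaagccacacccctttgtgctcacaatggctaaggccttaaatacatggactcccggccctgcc
The match TGATGTCA began at position −94 from that start. In Prm1 the match was TGACTTCA, at −64 from its RefSeq start. Gapdhs held TGATGTCA at −94 and TGACATCA at −76 from 1 RefSeq start, and the same pair at −70 and −52 from another. In Smcp the match TGATGTCA began at position 24, downstream of its RefSeq start, which itself lies upstream of the annotated TSSs.

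Genes with related roles were counted in the same way, beside 9.05% of all genes with a promoter peak in both replicates and 5.26% in the combined list. Of 10 further genes of sperm chromatin (Prm3, histone variants, kinases and remodelling factors), 0 had a promoter peak in replicate 1, replicate 2 or the combined list. Prm3 belongs to the protamine cluster and adds no separate observation. Others lay closer to peaks than the protamines did, such as Hist1h2ba at 2642, 2935 and 2653 bp in replicate 1, replicate 2 and the combined list, and Tssk6 at 1140 and 1165 bp in the replicates, both picked after their values were seen. Of 7 further genes named for the outer dense fibres, 2 had one in both replicates, and Odf2, the other main outer dense fibre component, had one in all 3 lists, with a best score of 47.3 in replicate 1 and 21.0 in replicate 2, and a −log10 p of 58.5 in the combined list for the peak at the TSS. Of 10 genes of sperm mitochondria, 1 had a promoter peak in both replicates and 0 in the combined list.

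Of 7 genes of the fibrous sheath, the scaffold on which sperm glycolytic enzymes sit, 3 had a promoter peak in both replicates. Ropn1l was in the combined list too, with scores of 59.3, 39.4 and 88.1 in replicate 1, replicate 2 and the combined list. Of 17 other genes of glycolysis, 2 had a promoter peak in both replicates, namely Aldoa with 130, 66.0 and 161, and Eno4 with 84.1, 47.4 and 114 at a start it shares with Hspa12a. Of genes of the core of intraflagellar transport complex B, which builds cilia, 7 of 10 had one in both replicates and in the combined list. In the combined peaks at the TSS, the best X-box match had 5 mismatches at Odf2, Ropn1l and Eno4, and 2 at Aldoa. With lists of 7 to 17 genes the intervals are wide, and no difference between lists was tested.

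**Figure D5:**
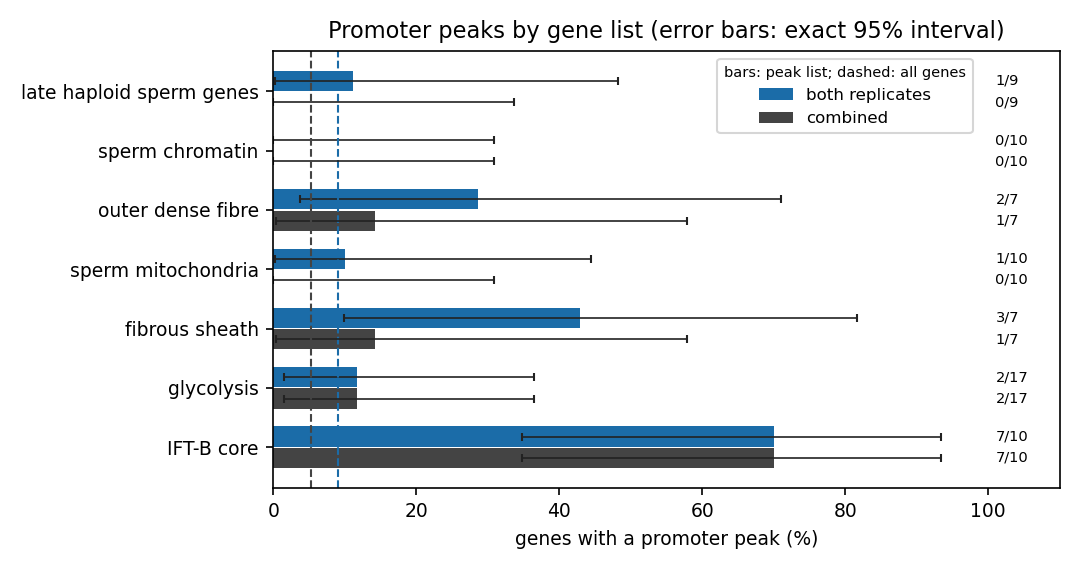
The percentage of genes with a promoter peak in both replicates (blue) or in the combined list (dark grey) is shown for the members and 6 related lists, with counts at the right, exact 95% intervals as error bars and the shares of all genes as dashed lines. The members have 1 of 9 and 0 of 9, and intraflagellar transport complex B has 7 of 10 in both.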

How the data were processed

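RFX2 ChIP-seq data of 2 WT mice with 2 inputs were used as deposited peak lists. Per the submitters' processing notes and the study's methods, reads were mapped to GRCm38 with Bowtie 0.12.7, reads with several locations were discarded, and peaks were called against input with MACS2 2.0.10.20130520, by default and at a relaxed p threshold of 0.01, with reproducible peaks then chosen by IDR. Which call each list holds is not stated, though the lowest replicate scores, 2.03 and 2.08, are close to −log10 of that threshold. Reads mapping to the human genome were removed from a second run of replicate 2. The deposited scores of replicates 1 and 2 are on a −log10 scale, and the authors' files do not say whether of p or q. The deposited combined list gives a score, the fold enrichment as a ratio, −log10 p, −log10 q and the summit. Its origin was read from its peak names, which begin with "all", and its overlap with the replicates is not independent. The numbers of reads are unknown.

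Peaks were placed on GENCODE mouse release 21 (Ensembl release 96, against release 70 in the file names), counting overlaps of at least 1 bp, which were checked with bedtools 2.31.1. Only protein-coding genes were used, so exon, intron, intergenic and nearest gene refer to these, and non-coding genes were not checked. Sequence was RefSeq GRCm38.p6, and the RefSeq promoter table held 8 of the 9 members by symbol, all but Odf1. X-boxes with at most 3 mismatches and CREs with at most 1 were sought on both strands with Python 3.11.15 and pysam 0.24.0. Both motifs are palindromes, so a match is the same on either strand. Shares carry exact (Clopper-Pearson) 95% intervals, which cover counting error only. No test was run, since no value was replicated per gene beyond the 2 lists. The scripts were tested on simulated peaks and sequences.

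The members, the related lists and the alternatives were chosen with earlier results of these data known. Named were all members, the genes nearest to their nearest peaks, Dync2li1, the somatic counterparts Ldha, Pgk1 and Gapdh, and related genes with a combined promoter peak, which for complex B are given as a count.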

Additional observations from a re-analysis of the deposited data

How the results depend on the processing

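Of 42 alternatives over 9 results, 31 stayed within a tolerance and 11 did not. The tolerance was a factor of 1.5 for counts of members, the 95% Wilson interval for the share of all genes, and the range from the second lowest to the second highest member for the median distance, which is wide. The count of members with a promoter peak was 1 in each replicate and in both (Odf1), and 0 in the combined list, under each other promoter window, TSS choice and overlap rule and with the top 50% of each list by score. Leaving out either ChIP replicate gave 1 to 1 members, which only repeats the counts of the single lists. The share of all genes with a combined promoter peak moved from 5.26% to 6.94% with a promoter of 5000 bp to both sides, 4.43% with the 5′-most TSS only, and 3.42% with the top 50% by score. The median distance of the members to a peak moved from 345 kb in the combined list to 29.9 kb in replicate 1 and 98.2 kb in replicate 2, and the count within 50 kb from 0 to 6 and 3, since these lists hold more peaks. Within tolerance, the median distance was 465 kb with the top 50% by score, and 2 members had an X-box in the shorter window. Members with an X-box numbered 1 with at most 2 mismatches and 6 with at most 4, and those with a CRE numbered 0 without a mismatch and 8 in the promoter window. No paired analysis was possible because the inputs have no values of their own and no result came from a test. The absence of a peak is absence from lists whose read depth is unknown. The methods describe several thresholds, and which was applied to each list is not stated.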

Other observations

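Other genes of sperm structures resembled Odf1 in having a promoter peak in both replicates but not in the combined list. They were picked after their values were seen, and 847 of the 21938 protein-coding genes had this pattern. Odf2l had a score of 9.24 in replicate 1 and 24.7 in replicate 2. Gk2, a glycerol kinase of sperm mitochondria, had 25.4 and 10.8, and Akap3, a scaffold protein of the fibrous sheath, had 25.3 and 5.95. Spa17, a sperm surface and fibrous sheath protein, had 5.12 and 4.47 at a start near that of Siae. Odf3l1 had a promoter peak in replicate 2 alone, with a score of 9.08, and its nearest replicate 1 peak was 38.6 kb away.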
